A study of Oryza sativa with 24 samples.

Results

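The regions described are the H3K4me3 peaks of rice cultivar Nipponbare over which no H3K9ac peak of Nipponbare was listed. A peak was a member when it shared not even 1 bp with any peak of the Nipponbare H3K9ac list. By this rule 2176 of the 28273 Nipponbare H3K4me3 peaks were members (7.7%, exact Clopper-Pearson 95% interval 7.39 to 8.01%), and the other 26097 carried H3K9ac (92.3% of the list). The overlap of these lists chose the members, so it is given as a description. The 16 lists of the series together held 410072 peaks.

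The plants were shoots of rice seedlings with 4 leaves, grown in soil for 4 weeks at 28 °C with 16 h of light and 8 h of dark. Nipponbare is a japonica cultivar and 93-11 an indica cultivar, and Nipponbare/93-11 and 93-11/Nipponbare are their reciprocal F1 hybrids. The labels give no transgene, mutation or treatment for any line. Which parent bore the seed of each hybrid is not stated in them. Whole shoots were used, so every list mixes the cell types of the shoot.

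H3K4me3 is laid down by Set1/COMPASS and Trithorax-type methyltransferases around the start of transcribed genes. H3K9ac is added by histone acetyltransferases at the same places and is removed by histone deacetylases, and the marks usually coincide in plants. H3K27me3 is set by Polycomb repressive complex 2 over genes that are silent in at least part of a tissue. DNA methylation in plants is dense over transposons and is also found inside the bodies of many genes, away from their starts.

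Each mark was profiled in a single library per line, and a deposited list gives only the chromosome, start and end of its peaks. The H3K4me3 lists held 27526 to 30697 peaks, the H3K9ac lists 28737 to 31943, the H3K27me3 lists 17479 to 20460 and the DNA methylation lists 22332 to 24695. Read depth is unknown. Without replicate libraries, differences between lines or between sets of peaks could not be tested, and "higher" and "lower" describe the listed shares. Intervals are exact 95% binomial intervals that cover counting error only, and neighbouring peaks are not independent. The lists may be incomplete as used here, and "lacking" or "without" a mark means that no peak of it was listed. No sequence and no gene name is given for any region, because no genome or annotation of the files' build was used.

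Few peaks lay near the boundary of the rule. The member closest to an H3K9ac peak lay on chromosome 2 from 19960687 to 19961493, with a gap of 9 bp. The next lay on chromosome 1 from 26504496 to 26505188, with a gap of 22 bp. In all, 19 members had an H3K9ac peak within 100 bp. Just outside the rule, the peaks on chromosome 6 from 27703489 to 27705468 and on chromosome 11 from 1278587 to 1280842 each shared 62 bp with an H3K9ac peak. Only 5 of the 26097 peaks with H3K9ac were overlapped by 100 bp or less, and 22312 of them (85.5%) were covered over at least 90% of their width. Only 9 were covered over less than 10%, so peaks that H3K9ac barely touched were few.

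Members were found at both ends of the width range. Their median width was 1221 bp (quartiles 944 to 1623.5 bp, range 256 to 5267 bp), against 1362 bp (1100 to 1701 bp, 401 to 8713 bp) for the H3K4me3 peaks with H3K9ac. Among Nipponbare H3K4me3 peaks narrower than 750 bp, 180 of 1071 were members (16.8%, 14.6 to 19.2%). The share fell to 350 of 6840 (5.12%, 4.61 to 5.67%) from 1500 to below 2000 bp and was 94 of 508 (18.5%, 15.2 to 22.2%) at 3000 bp or more. Width can itself help to decide membership, and these shares describe the members without testing them.

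The same rule was applied within each of the other lines. It left 2137 H3K4me3 peaks without H3K9ac in 93-11 (7.76%), 2117 in Nipponbare/93-11 (6.9%) and 2719 in 93-11/Nipponbare (9.13%). Below 750 bp the shares were 20.9% in 93-11, 17.9% in Nipponbare/93-11 and 24.7% in 93-11/Nipponbare. From 1500 to below 2000 bp they were 4.49, 3.67 and 5.11% in that order. At 3000 bp or more they were 11.3% (8.89 to 14.2%), 11.1% (8.84 to 13.7%) and 9.05% (7.26 to 11.1%). The lowest share lay in an intermediate class in every line, as in Nipponbare, and the widest class stood above that minimum. In these 3 lines the widest class was below both the narrowest and the 750 to 1000 bp class (13.8, 12.3 and 20.6%), whereas in Nipponbare it had the highest share of all classes. Nipponbare had the highest share among the widest peaks, and 93-11/Nipponbare among the narrowest.

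**Figure D1:**
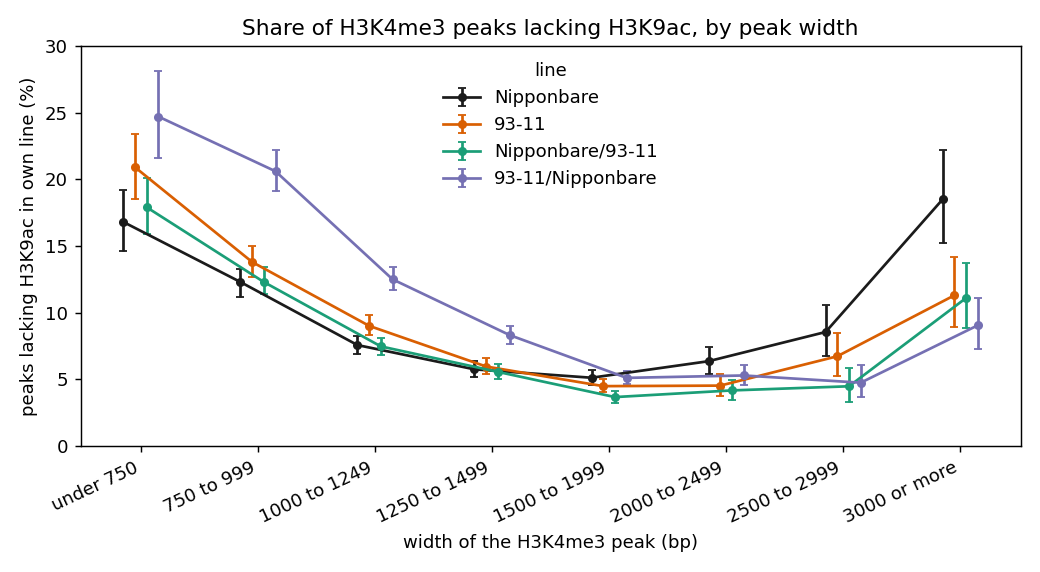
Share of H3K4me3 peaks lacking H3K9ac in their own line (%, vertical axis) against the width of the H3K4me3 peak in bp (8 classes, horizontal axis), with 1 colour for each line, points for shares and bars for exact 95% binomial intervals. In each line the lowest share lies in a class between 1500 and 3000 bp, and the widest class is above that minimum. In Nipponbare the share goes from 16.8 to 5.12 and back to 18.5%, and in the other lines the widest class reaches 9.05 to 11.3%.

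The gap to H3K9ac was used by the rule, so it describes the members and has no counterpart among the peaks with H3K9ac. The nearest H3K9ac peak lay at a median of 2489.5 bp from the member's edge (quartiles 1162.75 to 4984.25 bp, at most 77963 bp). It was within 1000 bp for 459 members (21.1%) and within 5000 bp for 1632 (75%). For 1707 members (78.4%, 76.7 to 80.2%) that H3K9ac peak lay on the previous or the next H3K4me3 peak of the chromosome, in a list where 92.3% of all peaks carried H3K9ac.

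The distance to the nearest other H3K4me3 peak was shorter for members than for the peaks with H3K9ac. Its median was 2992.5 bp (95% interval of the median 2806 to 3118 bp) for members and 4799 bp (4743 to 4845 bp) for peaks with H3K9ac. Another H3K4me3 peak lay within 1000 bp of 329 members (15.1%, 13.6 to 16.7%), against 997 peaks with H3K9ac (3.82%, 3.59 to 4.06%) and 4.69% of all Nipponbare H3K4me3 peaks. Closeness was not limited to densely marked chromosome parts. In the 1 Mb windows with fewest H3K4me3 peaks (21 to 53), the median distance was 4112 bp for members and 7305.5 bp for peaks with H3K9ac. In those with most (97 to 126), it was 2803 and 4044 bp. Within each quartile of width the share with a neighbour inside 1000 bp was also higher for members, at 12% against 5.26% in the narrowest and 15.2 against 3.29% in the widest.

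**Figure D2:**
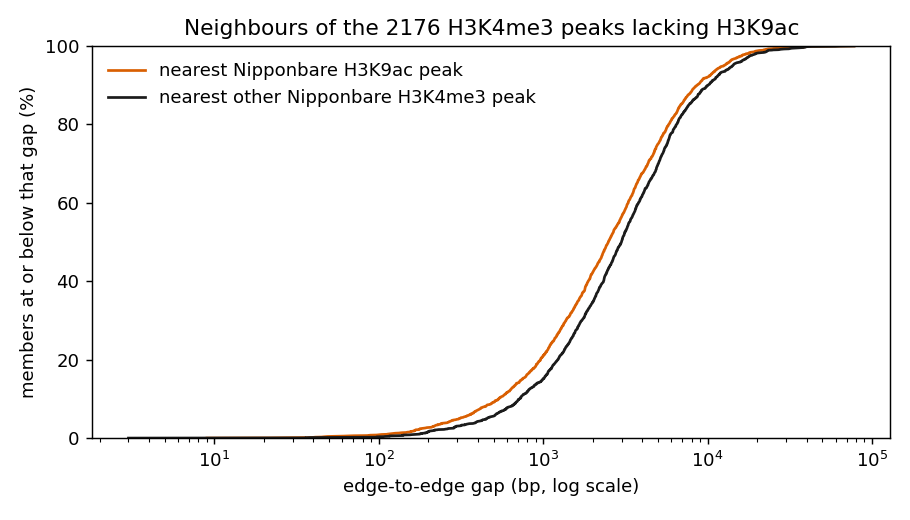
Percentage of the 2176 members (vertical axis) whose nearest Nipponbare H3K9ac peak (orange) or nearest other Nipponbare H3K4me3 peak (black) lies at or below a given edge-to-edge gap in bp (horizontal axis, log scale). The curves cross 50% at 2489.5 and 2992.5 bp, and 92.0% of members have an H3K9ac peak within 10000 bp.

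Most members, like most peaks of the list, lay between H3K4me3 peaks with H3K9ac. The previous and the next H3K4me3 peak both carried H3K9ac (or one was missing at a chromosome's end) for 1794 members (82.4%, 80.8 to 84.0%), against 85.3% of all Nipponbare H3K4me3 peaks, and the other 382 lay in 176 runs of 2 or more consecutive members. The nearest H3K4me3 peak was itself a member for 229 (10.5%, 9.27 to 11.9%), against 8.38% (8.05 to 8.73%) for peaks with H3K9ac and 8.55% of all. Only 2 runs held 4 members. On chromosome 1 from 6315880 to 6365541 (49.7 kb), the 4 members were 789 to 2041 bp wide, and the span held 1 H3K9ac peak of Nipponbare, 5 of 93-11, 5 of Nipponbare/93-11 and 2 of 93-11/Nipponbare. H3K9ac lay on 2 of these 4 members in each of the other 3 lines. The other, on chromosome 4 from 26353869 to 26367436 (13.6 kb), held 4 members of 1041 to 2764 bp, with H3K9ac on 3 of them in 93-11, 3 in Nipponbare/93-11 and 2 in 93-11/Nipponbare. That span held no DNA methylation peak in any line. The longest-spanning run of 3 members, on chromosome 3 from 24007302 to 24124487 (117 kb), had H3K9ac on 2 of them in each of the other lines, and 8 DNA methylation peaks of Nipponbare lay between its members.

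Members made up between 6.69% of H3K4me3 peaks on chromosome 9 (5.52 to 8.03%) and 8.88% on chromosome 1 (7.99 to 9.83%), so no chromosome was free of them or dominated by them. Their share was higher where DNA methylation peaks were few. In 1 Mb windows with 10 to 49 DNA methylation peaks of Nipponbare, 767 of 8385 H3K4me3 peaks were members (9.15%, 8.54 to 9.78%), and in windows with 76 to 101 it was 367 of 5981 (6.14%, 5.54 to 6.77%). By the density of H3K4me3 itself, the share was 5.38% in windows with fewest peaks and 9.13% in those with most. Windows are parts of the same library and not replicates.

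H3K9ac was listed on many members in the other lines. It lay on 1083 members in 93-11 (49.8%, 47.6 to 51.9%), where 83.9% of all Nipponbare H3K4me3 peaks had it. In Nipponbare/93-11 it lay on 1311 (60.2%, 58.2 to 62.3%; 94.3% of all), and in 93-11/Nipponbare on 1161 (53.4%, 51.2 to 55.5%; 91.7% of all). These 3 libraries took no part in choosing the members. The corresponding shares of the H3K4me3 peaks that carried H3K9ac in Nipponbare were higher, at 86.8, 97.1 and 94.9% in the same order. The gap remained within each quartile of width: among the narrowest peaks (256 to 1086 bp) 44.8% of members against 81.4% in 93-11, and among the widest (1697 bp or more) 57.8 against 91.9%.

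Where another line listed H3K9ac on a member, its peak covered members about as far as it covered the other H3K4me3 peaks. The median cover was 97.9% of the member in 93-11, 98.7% in Nipponbare/93-11 and 97.3% in 93-11/Nipponbare, against 98.5, 98.6 and 97.9% of the peaks with H3K9ac in Nipponbare. At least 90% was covered in 73.1 to 78.8% of these members, by line, and in 76.5 to 79.6% of the other peaks. At most 2.93% of these members (34 of 1161 in 93-11/Nipponbare) were met by an H3K9ac peak that also overlapped one of Nipponbare.

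Members ranged from those without H3K9ac in any line to those without it in Nipponbare alone. The largest single class had it in all 3 other lines. Pooled, 873 members (40.1%) had it in 1 or 2 of them, and each class is given below beside its share of all peaks. No other line listed H3K9ac on 564 members (25.9%, 24.1 to 27.8%), against 3.47% of all Nipponbare H3K4me3 peaks. All 3 other lines listed it on 739 (34.0%, 32.0 to 36.0%; 80.5% of all). It was in 1 other line for 408 members (18.8%; 3.7% of all) and in 2 for 465 (21.4%; 12.3% of all). Among the patterns of 2 lines, both hybrids without 93-11 was the most frequent, with 220 members (10.1%). Its share was close to the 9.56% of the peaks with H3K9ac. The other patterns of 2 lines were above that comparison. 93-11 with Nipponbare/93-11 had 146 members (6.71% against 1.55%), and 93-11 with 93-11/Nipponbare had 99 (4.55% against 0.437%). The members with H3K9ac in no other line had a median width of 1132 bp, and those with it in all 3 of 1311 bp.

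**Figure D3:**
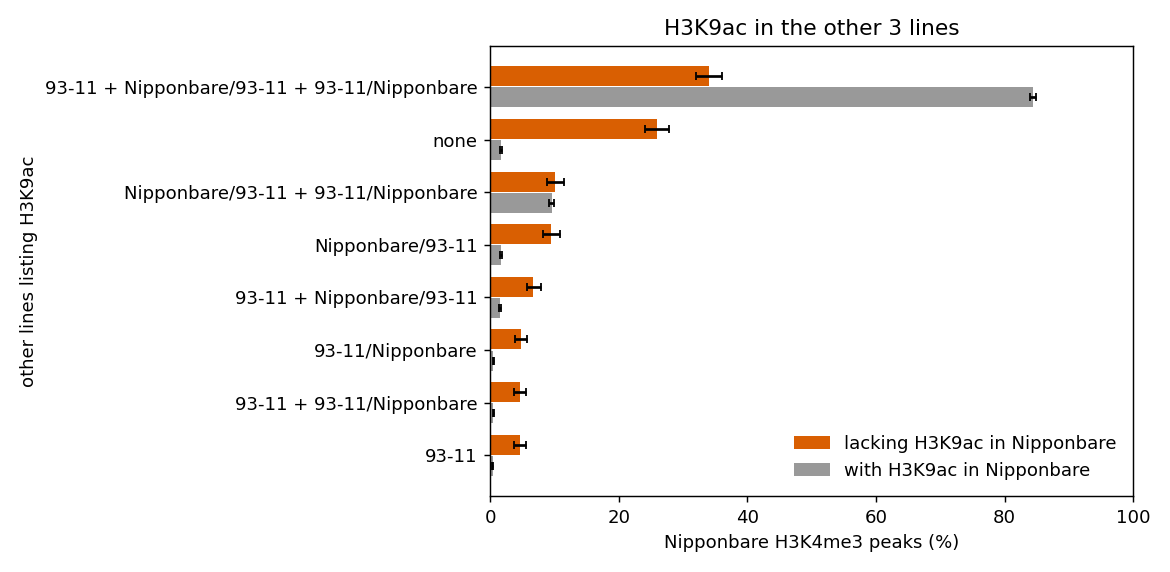
Percentage of Nipponbare H3K4me3 peaks (horizontal axis) for each combination of the other 3 lines that listed H3K9ac there (vertical axis), for the 2176 peaks lacking H3K9ac in Nipponbare (orange) and the 26097 with it (grey); bars start at 0 and error bars are exact 95% binomial intervals. The most frequent single combinations among members are all 3 other lines (34.0%) and none (25.9%), while 84.4% of the peaks with H3K9ac had it in all 3.

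Most members were H3K4me3 peaks in the other lines too. H3K4me3 was listed on 1658 members in 93-11 (76.2%, 74.3 to 78.0%; 86.6% of all Nipponbare H3K4me3 peaks). In Nipponbare/93-11 it was on 1855 (85.2%, 83.7 to 86.7%; 96.8% of all), and in 93-11/Nipponbare on 1758 (80.8%, 79.1 to 82.4%; 95% of all). All 3 other lines listed it on 1476 members (67.8%, 65.8 to 69.8%; 85.2% of all), and none of them on 186 (8.55%, 7.41 to 9.80%; 1.92% of all). Most members were thus H3K4me3 peaks in every line, and the share listed in Nipponbare alone was above that of the whole list.

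The state itself, H3K4me3 without H3K9ac, recurred in libraries that the rule did not use. At 646 of the 1658 members with H3K4me3 in 93-11, the 93-11 peak also lacked H3K9ac in 93-11 (39.0%, 36.6 to 41.4%). At the peaks with H3K9ac in Nipponbare this was so for 656 of 22823 (2.87%, 2.66 to 3.10%). The same count was 615 of 1855 (33.2%, 31.0 to 35.3%) against 2.03% in Nipponbare/93-11, and 693 of 1758 (39.4%, 37.1 to 41.7%) against 3.55% in 93-11/Nipponbare. Over all Nipponbare H3K4me3 peaks, with or without H3K4me3 in the other line, such peaks made up 4.61, 4.01 and 5.6% in that order. In 224 members (10.3%, 9.05 to 11.6%) all 4 lines listed H3K4me3 by a peak that lacked H3K9ac in that line, where 1.14% of all Nipponbare H3K4me3 peaks met such peaks in the other 3 lines.

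**Figure D4:**
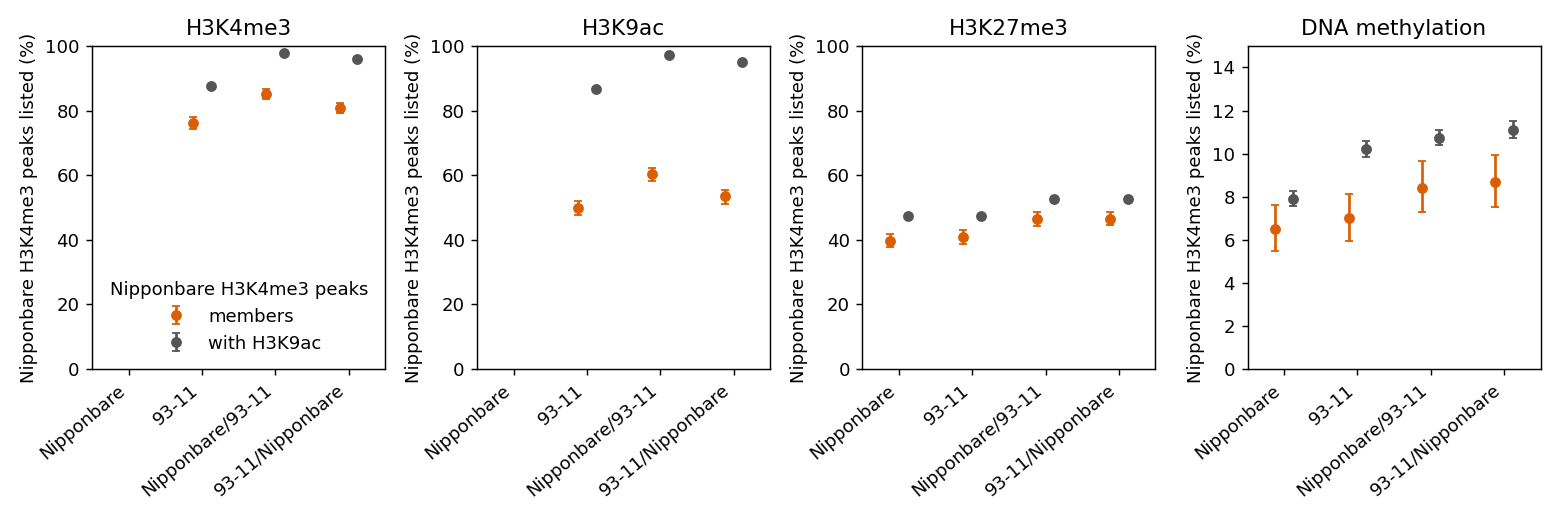
Percentage of Nipponbare H3K4me3 peaks (vertical axes, the last panel to 15% and the others to 100%) on which each mark was listed in each line (horizontal axis), for members (orange) and for peaks with H3K9ac in Nipponbare (grey), with exact 95% binomial intervals; the values that the rule fixed are left out. In percentage points, the sets differ most for H3K9ac, for example 49.8 against 86.8% in 93-11. They differ least for DNA methylation in Nipponbare, at 6.48 against 7.9%, in the panel with the shorter axis range.

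H3K27me3 was listed on 862 members in Nipponbare (39.6%, 37.6 to 41.7%), against 47.3% (46.7 to 47.9%) of the peaks with H3K9ac and 46.7% of all Nipponbare H3K4me3 peaks. The other libraries gave 889 members in 93-11 (40.9%; 46.9% of all), 1009 in Nipponbare/93-11 (46.4%; 52.2% of all) and 1012 in 93-11/Nipponbare (46.5%; 52.0% of all). All 4 lines listed it on 658 members (30.2%, 28.3 to 32.2%; 34.9% of all) and no line on 955 (43.9%, 41.8 to 46.0%; 37.2% of all). The order of members and other peaks depended on width. In the narrowest quartile H3K27me3 was on 37.7% (34.4 to 41.1%) of members and 34.0% (32.8 to 35.2%) of peaks with H3K9ac, and in the widest on 44.5% (40 to 49.1%) and 67.7% (66.6 to 68.8%). That order in the widest quartile held in each of the other 3 H3K27me3 lists, for example 49.1 against 67.8% in 93-11.

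H3K27me3, where listed, spread over more of a member. It covered at least 90% of the peak in 685 of 862 members (79.5%, 76.6 to 82.1%) and in 53.7% (52.8 to 54.6%) of the peaks with H3K9ac and H3K27me3. A narrow peak is covered more easily, and the order was the same within each quartile of width, at 96.2 against 83.8% in the narrowest and 54.2 against 40.8% in the widest. Members with H3K27me3 had a median width of 1251 bp.

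The share of members with H3K27me3 was higher where the other lines had H3K9ac. Among the 564 members without H3K9ac in any line, 172 had H3K27me3 in Nipponbare (30.5%, 26.7 to 34.5%), 127 in 93-11 (22.5%, 19.1 to 26.2%), 182 in Nipponbare/93-11 (32.3%) and 181 in 93-11/Nipponbare (32.1%). Among the 739 with H3K9ac in all 3 other lines, 348 had it in Nipponbare (47.1%, 43.4 to 50.8%), 411 in 93-11 (55.6%, 51.9 to 59.2%), 428 in Nipponbare/93-11 (57.9%) and 425 in 93-11/Nipponbare (57.5%). This group was chosen by H3K9ac of those 3 lines, and its share with H3K27me3 was higher in those lines than in Nipponbare. Over all Nipponbare H3K4me3 peaks the share was 46.7% in Nipponbare and 46.9% in 93-11. It was 52.2% in Nipponbare/93-11 and 52.0% in 93-11/Nipponbare, so the hybrid lists were higher there too. In the 229 members with H3K4me3 in all 4 lines and H3K9ac in none (10.5% of members; 1.17% of all have H3K4me3 in all 4 lines and H3K9ac in none of the other 3), H3K27me3 lay on 54 in Nipponbare (23.6%, 18.2 to 29.6%), 55 in 93-11 (24.0%), 55 in Nipponbare/93-11 (24.0%) and 63 in 93-11/Nipponbare (27.5%). These shares were below those of the 739 in every line, and below those of the 564 except in 93-11. Their median width was 1249 bp, near that of all members. H3K4me3 and H3K9ac in all 3 other lines were listed on 671 members (30.8%, 28.9 to 32.8%; 78.4% of all), of which 319 had H3K27me3 in Nipponbare (47.5%, 43.7 to 51.4%).

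DNA methylation was listed on few members and mostly covered a small part of them. It was listed on 141 members in Nipponbare (6.48%, 5.48 to 7.60%), against 7.90% (7.58 to 8.24%) of the peaks with H3K9ac and 7.79% of all, and the intervals of members and other peaks overlap. Over all widths, the share in the other lines was lower for members than for the peaks with H3K9ac. In 93-11 it was on 152 members (6.99%, 5.95 to 8.14%) against 10.2% (9.82 to 10.6%) and 9.94% of all. In Nipponbare/93-11 it was on 183 (8.41% against 10.7%; 10.6% of all), and in 93-11/Nipponbare on 189 (8.69% against 11.1%; 10.9% of all). No line listed it on 1880 members (86.4%, 84.9 to 87.8%), against 82.7% of all, and all 4 lines on 44 (2.02%), against 2.97% of all. The order depended on width. In the narrowest quartile it was on 6.67% (5.07 to 8.57%) of members and 4.89% (4.36 to 5.45%) of peaks with H3K9ac in Nipponbare. There it was 4.88 against 7.23% in 93-11, 6.9 against 6.93% in Nipponbare/93-11 and 7.02 against 7.48% in 93-11/Nipponbare. In the widest quartile members were lower in every line, for example 6.65 against 10.2% in Nipponbare.

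Among the 141 members with DNA methylation in Nipponbare, the methylated peak covered a median of 18.6% of the member. It covered at least 50% in 21 of them (14.9%, 9.46 to 21.9%), close to the 12.9% (11.5 to 14.4%) of the peaks with H3K9ac. At least 90% was covered in 9 members (6.38%, 2.96 to 11.8%), against 17 of 2062 (0.824%, 0.481 to 1.32%). The same share was 11.2% (6.65 to 17.3%) against 6.47% (5.57 to 7.48%) in 93-11. In Nipponbare/93-11 it was 6.01% (3.04 to 10.5%) against 3.39% (2.75 to 4.13%), and in both of these lines the intervals overlap. In 93-11/Nipponbare it was 11.1% (7.01 to 16.5%) against 5.08% (4.31 to 5.95%). Members covered nearly whole by DNA methylation were thus few in number. A narrow peak is covered more easily, and these shares were not split by width. For members without it, the nearest DNA methylation peak was at a median of 5294 bp, against 4594 bp for peaks with H3K9ac. Neither H3K27me3 nor DNA methylation was listed on 1227 members in Nipponbare (56.4%, 54.3 to 58.5%; 49.2% of all), so more than 1 in 2 members carried H3K4me3 alone among the 4 marks.

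The widest members differed from each other in the lines that shared their marks. The widest, on chromosome 7 from 2097014 to 2102281 (5267 bp), was covered by H3K4me3 over its whole width in each line, and by H3K9ac in Nipponbare/93-11 alone, also whole. H3K27me3 covered 78.6% of it in Nipponbare and 31.3% in 93-11, with 60.5% in Nipponbare/93-11 and 48.2% in 93-11/Nipponbare, and DNA methylation was listed in no line. The second, on chromosome 3 from 2941703 to 2946637 (4934 bp), had H3K4me3 in both hybrids as well as Nipponbare, whereas 93-11 had none and was the only line with H3K9ac there (62.3% of its width). H3K4me3 and H3K9ac at this place were thus split between the parents, with H3K4me3 in one and H3K9ac in the other. H3K27me3 was listed there in Nipponbare alone, over 24.6% of the peak. On chromosome 5 from 29296310 to 29301219 (4909 bp), Nipponbare/93-11 had both H3K4me3 (97.1%) and H3K9ac (99.0%), and 93-11 and 93-11/Nipponbare had neither. An H3K9ac peak of Nipponbare lay 478 bp away. On chromosome 7 from 18262266 to 18267149 (4883 bp), H3K9ac covered 61.4% in 93-11, 99.0% in Nipponbare/93-11 and 97.5% in 93-11/Nipponbare, while H3K4me3 was not listed in Nipponbare/93-11. H3K27me3 was listed on this member in 93-11 alone (74.3%). On chromosome 12 from 19865721 to 19870395 (4674 bp), H3K9ac covered 47.1% in 93-11, 48.8% in Nipponbare/93-11 and 75.9% in 93-11/Nipponbare, and H3K27me3 was found in each line.

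Wide regions with H3K4me3 in all 4 lines and H3K9ac in none were also found. The widest lay on chromosome 4 from 22614418 to 22618462 (4044 bp), where H3K4me3 of the other lines covered 93.7% (93-11), 96.0% (Nipponbare/93-11) and 96.2% (93-11/Nipponbare) of the Nipponbare peak. H3K27me3 covered 53.9, 56.0, 99.3 and 54.0% of it in Nipponbare, 93-11, Nipponbare/93-11 and 93-11/Nipponbare. DNA methylation was in the Nipponbare list alone, over 6.43% of it. This region thus kept the same 2 histone marks in every line. On chromosome 3 from 31535892 to 31539772 (3880 bp), H3K4me3 was the only mark in any line, and the nearest Nipponbare H3K9ac peak was 4524 bp away. On chromosome 1 from 7735817 to 7739614 (3797 bp), H3K4me3 covered the peak whole in all 4 lines and the nearest H3K9ac peak of Nipponbare was 13160 bp off. H3K27me3 covered 62.0% of it in Nipponbare, 63.4% in 93-11 and 61.7% in Nipponbare/93-11 and was not listed in 93-11/Nipponbare.

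At the member on chromosome 5 from 26805776 to 26810339 (4563 bp), Nipponbare was the single line without H3K9ac, and the marks occupied separate parts of the H3K4me3 peak. H3K9ac covered 31.2% of it in 93-11, 27.5% in Nipponbare/93-11 and 31.7% in 93-11/Nipponbare. H3K27me3 covered 46.9% in Nipponbare and 43.8% in 93-11, with 44.1% in Nipponbare/93-11 and 46.9% in 93-11/Nipponbare, on the opposite side. H3K4me3 spanned at least 95.3% of the region in every line.

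**Figure D5:**
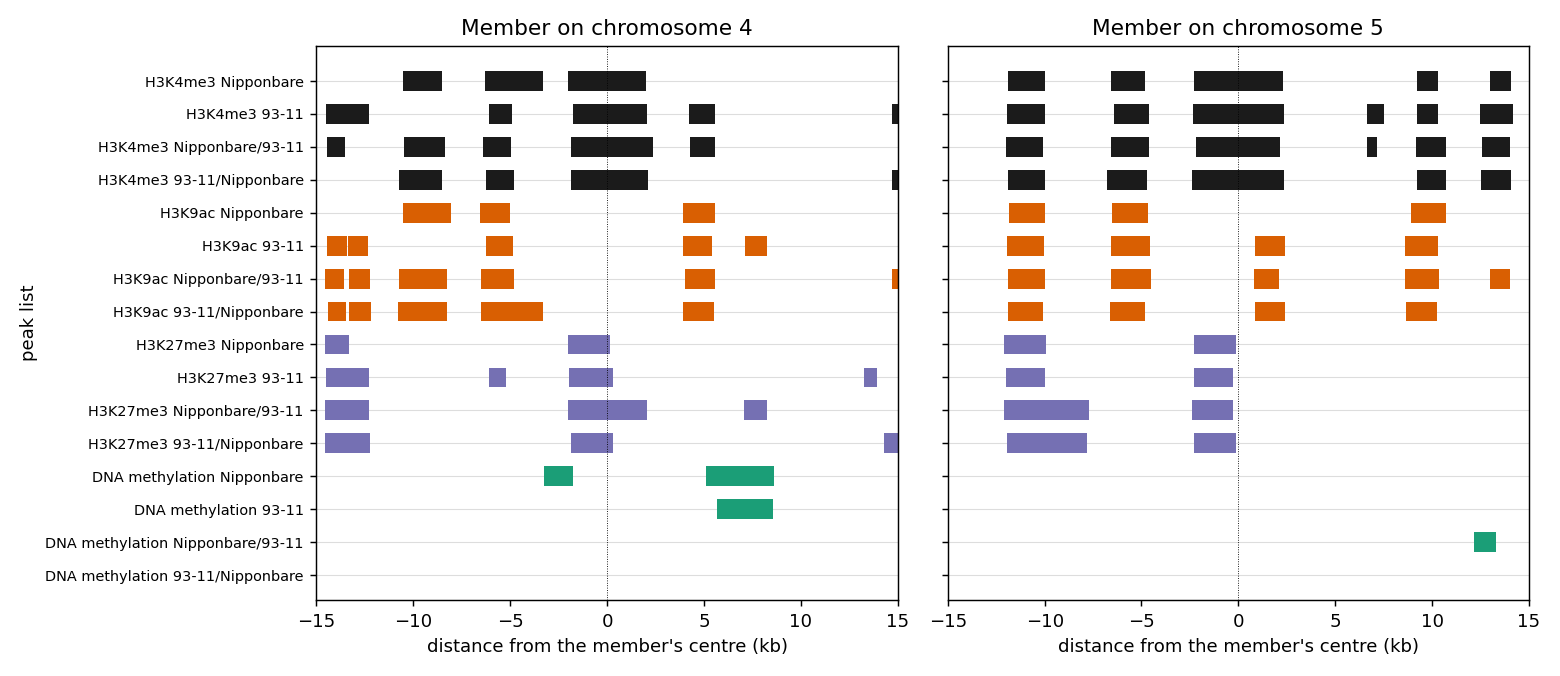
Peaks of the 16 lists (vertical axis, 1 row for each mark and line) within 15 kb of the centre of 2 members (horizontal axis, distance in kb); each block is a listed peak, drawn to scale. On chromosome 4 (left) no H3K9ac block lies under the H3K4me3 peak at the centre in any line, and on chromosome 5 (right) the other 3 lines list H3K9ac on one side of it and all 4 list H3K27me3 on the other.

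DNA methylation in all 4 lines was seen on wide members with mixed histone states. On chromosome 5 from 17439589 to 17443271 (3682 bp), DNA methylation covered 18.6% in Nipponbare and 37.7% in 93-11, with 24.6% in Nipponbare/93-11 and 27.2% in 93-11/Nipponbare. H3K4me3 covered less than 50% of this peak in each other line and H3K9ac was listed in all 3 of them. On chromosome 1 from 32786858 to 32790446 (3588 bp), H3K9ac was listed in 93-11 (67.8%) and 93-11/Nipponbare (86.5%), and H3K27me3 in all lines but Nipponbare. On chromosome 1 from 38156209 to 38159598 (3389 bp), H3K9ac was listed in 93-11 alone (99.5%), with no H3K27me3 in any line. These 3 regions were picked for DNA methylation in all 4 lines, and it covered 18.6 to 43.3% of each. The rule set their lack of H3K9ac in Nipponbare. Among the other 3 lines, H3K9ac differed at both chromosome 1 regions and not at the chromosome 5 region.

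The 186 members with H3K4me3 in Nipponbare alone had a median width of 963.5 bp, close to the 994 bp of the 357 such peaks with H3K9ac. For 130 members (5.97%, 5.02 to 7.05%) neither H3K4me3 nor H3K9ac was listed in any of the other 3 lines, against 0.895% of all Nipponbare H3K4me3 peaks. H3K27me3 was listed on 64 of the 186 in Nipponbare (34.4%, 27.6 to 41.7%), 42 in 93-11 (22.6%, 16.8 to 29.3%), and 68 in each hybrid (36.6%, 29.6 to 43.9%). Over all Nipponbare H3K4me3 peaks, most of them wider, the share was 46.7 to 52.2%, by line. In the narrowest quartile of width, the peaks with H3K9ac had 34.0% in Nipponbare and 33.6% in 93-11. There they had 38.8% in Nipponbare/93-11 and 38.4% in 93-11/Nipponbare, so only the 93-11 share of the 186 stood clearly lower. DNA methylation was listed on 15 of the 186 in Nipponbare (8.06%, 4.58 to 13%) and 14 in 93-11 (7.53%). It was on 18 in Nipponbare/93-11 (9.68%) and 19 in 93-11/Nipponbare (10.2%). Over all Nipponbare H3K4me3 peaks the shares were 7.79, 9.94, 10.6 and 10.9% in that order, each inside the interval of the 186. The widest lay on chromosome 3 from 10337154 to 10341058 (3904 bp), where the single other peak was H3K9ac in 93-11/Nipponbare (91.0%). On chromosome 5 from 28154815 to 28158369 (3554 bp), H3K9ac was again listed in 93-11/Nipponbare alone (60.3%) and each line listed H3K27me3. The member on chromosome 2 from 25046307 to 25049594 (3287 bp) was covered by H3K27me3 over 93.2, 94.9, 91.5 and 98.8% in Nipponbare, 93-11, Nipponbare/93-11 and 93-11/Nipponbare, and no line listed H3K9ac. At this last place Nipponbare differed from the other lines by the H3K4me3 peak alone.

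Members were also grouped by their gap to H3K9ac, which the rule used, so the groups are a description. Among all Nipponbare H3K4me3 peaks, 46.7% had H3K27me3 in Nipponbare and 85.2% had H3K4me3 in all 3 other lines. H3K9ac was listed in all 3 other lines on 80.5% of them. The 459 members with an H3K9ac peak within 1000 bp had a median width of 1312 bp and H3K27me3 in Nipponbare on 46.8% (42.2 to 51.5%), and 277 of them (60.3%, 55.7 to 64.9%) had H3K4me3 in all 3 other lines. The 1173 members between 1000 and 5000 bp away had 1215 bp, 35.8% (33.1 to 38.6%) and 69.2% (66.5 to 71.9%) for the same quantities. The 544 farther members had 1101 bp, 41.7% (37.5 to 46.0%) and 71.1% (67.1 to 74.9%). H3K9ac in all 3 other lines was at 31.6% (27.4 to 36.1%), 33.7% (31.0 to 36.5%) and 36.6% (32.5 to 40.8%), intervals that overlap. The members nearest to H3K9ac thus had the largest median width and the lowest share with H3K4me3 in all lines. Peaks of 3000 bp or more did not follow the median in their listed shares. They made up 3.05% (1.68 to 5.06%) of the nearest group, 3.92% of the middle group and 6.25% (4.37 to 8.62%) of the farthest. The intervals of the nearest and farthest groups overlap. In the whole list, 508 of 28273 peaks were that wide. The share with H3K27me3 was lowest in the middle group, so it did not rise or fall steadily with distance.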

How the data were processed

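The 16 peak lists of DNA methylation and histone marks were used, from 24 samples in the labels; the 8 RNA samples were not analysed here. Per the labels' protocols, genomic DNA was enriched for its methylated part, with McrBC digestion (McrBC cleaves DNA at methylated sites), chromatin was pulled down by antibodies to each histone mark, and Illumina libraries were made. The deposited lists hold chromosome, start and end in 3 columns with no header and no score. The sources used here name no aligner, peak caller, threshold, control or genome build. Positions are unchanged, and whether they count from 0 or 1 is not stated; width is end minus start.

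Lists were intersected at a minimum of 1 bp. Shares have exact Clopper-Pearson 95% intervals and medians exact order-statistic intervals. Width quartiles are those of all Nipponbare H3K4me3 peaks. The RefSeq gene table at hand names another assembly and was not used. Regions were named by a fixed rule: the 5 widest members, the 3 widest of each state described, and the 3 runs with most members. Members, classes and rules were chosen with earlier results of these data known. Overlap counting was first tested on simulated intervals. Versions were Python 3.11.15, scipy 1.17.1, pandas 2.3.3, numpy 2.4.6 and matplotlib 3.10.9.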

Additional observations from a re-analysis of the deposited data

How the results depend on the processing

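Of 61 values recomputed under other settings, 42 stayed within the interval of the reported value (counts within 1.5 times) and 19 moved. Keeping only H3K4me3 peaks of at least the median width left 870 members in place of 2176, with a median width of 1766.5 bp, a nearest H3K4me3 peak at 2778.5 bp, H3K27me3 on 43.0%, H3K9ac in all 3 other lines on 40.6%, H3K4me3 in all 3 on 77.4% and 72 peaks lacking H3K9ac in all 4 lines in place of 224. Requiring no H3K9ac within 1000 bp gave a median width of 1187 bp and a nearest H3K4me3 peak at 3405 bp, and merging H3K4me3 peaks under 500 bp apart gave 3172 bp. Counting a mark within 500 bp gave H3K27me3 on 42.6%, DNA methylation on 13.3%, H3K9ac in all 3 other lines on 38.8% and H3K4me3 on 70.5%. With mark peaks of at least their own median width these were 25.8, 2.57, 11.9 and 27.1%, from lists shortened by construction. DNA methylation covered at least 50% of 0.965% of members, against 6.48% met by 1 bp. Allowing H3K9ac on under 10% of a peak or requiring none within 500 bp moved no value past its interval. Keeping the 12 nuclear chromosomes could change no value, because neither Nipponbare list of the rule held a peak outside them. Its values are counted among the 42 and say nothing about robustness. No paired analysis was possible because each mark and line has 1 library. Unknown read depth limits every statement that a mark is not listed.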

Other observations

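Each other line also had its own widest H3K4me3 peak without H3K9ac. In 93-11/Nipponbare it reached from 3 to 36957 on chromosome 9 (36954 bp) and met no peak of any other list. In Nipponbare/93-11 it was the chromosome 3 region from 2941596 to 2946470, over the second widest member of Nipponbare, and H3K9ac was listed there in 93-11 alone. In 93-11 it was on chromosome 4 from 22092827 to 22098796 (5969 bp), where the other 3 lines listed H3K9ac and all 4 listed H3K27me3.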
